A study of Rattus norvegicus with 9 samples.

Results

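AS8351, a compound that the labels call an inhibitor of the histone demethylase Kdm5b, was compared with its solvent DMSO in rat heart cells recovering from lack of oxygen. The comparison rested on the library titles and covered 6 of the 9 libraries of the study, 3 titled H/R-AS8351 and 3 titled H/R-DMSO. The cells, abbreviated NRCM and labelled as cardiomyocytes from heart, spent 6 h at 0.1% oxygen in a medium free of glucose and pyruvate, followed by 12 h at 21% oxygen in the usual medium, a culture model known as hypoxia and reoxygenation (H/R). The H/R-AS8351 cells received 0.5 µM AS8351 in DMSO during reoxygenation only, and the H/R-DMSO cells the same volume of DMSO. The remaining 3 libraries came from cells kept in normoxia, and the labels do not say whether these received DMSO. No genetic change is named for any group. The study's aim, from its title, is to reduce this kind of injury by inhibiting Kdm5b.

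Kdm5b removes methyl groups from a lysine of histone H3 that is methylated at active promoters. Enzymes of this kind need iron and alpha-ketoglutarate, and they use oxygen in the reaction, so that lack of oxygen and agents that bind iron can both slow them. In heart muscle, the return of oxygen after a period without it adds damage of its own, and cultured neonatal heart cells are widely used to study that phase.

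Total RNA was sequenced to between 34442733 and 47188086 counts in the 6 libraries and between 37905280 and 54888975 in normoxia, and 15879 of 30560 Ensembl genes had enough counts to be tested. The files identify genes by Ensembl IDs only, without names, and 0 of the 47357 genes of the rat table used here list an Ensembl ID. Kdm5b, Brinp2, which the series title also names, and the markers of cardiomyocytes and of other heart cells were therefore not analysed here, and neither the cell type label nor the inhibitor's target could be checked. Genes are described by level and behaviour, and only 2 IDs that rose and 2 that fell are printed. Nothing in the labels says that the 3 libraries of a group are separate cultures, so the p-values reflect no more than the spread among these libraries, which may be technical. Levels are in CPM, a library's counts relative to its total count times a scaling factor, so that summed CPM can differ between libraries. They serve to compare a gene with itself, not 2 genes with each other.

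AS8351 changed the RNA of the reoxygenated cells widely, mostly by small steps, and the large steps were mostly upward. At an adjusted p below 0.05 (edgeR quasi-likelihood test), 23.1% of the tested genes were called, 2088 higher (13.1%) and 1583 lower (9.97%). Up to 3-fold, increases outnumbered decreases more with each step in size. Of the called genes, 968 increases and 463 decreases reached 1.25-fold. At 1.5-fold there were 431 and 130, at 2-fold 193 and 24, and at 3-fold 76 and 5. The increases therefore made up 56.9% of all called genes and 88.9% of those with a 2-fold change. With an edgeR test against a change of 1.2-fold in place of 0, which was added after the data were seen, 515 genes were higher and 158 lower. With scaling by the total count only, the calls were 1656 higher and 2383 lower, so 41.0% of them were increases, while at least 2-fold changes were still 180 up and 32 down. Without H/R-AS8351 replicate 2, 1042 genes were lower.

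**Figure D1:**
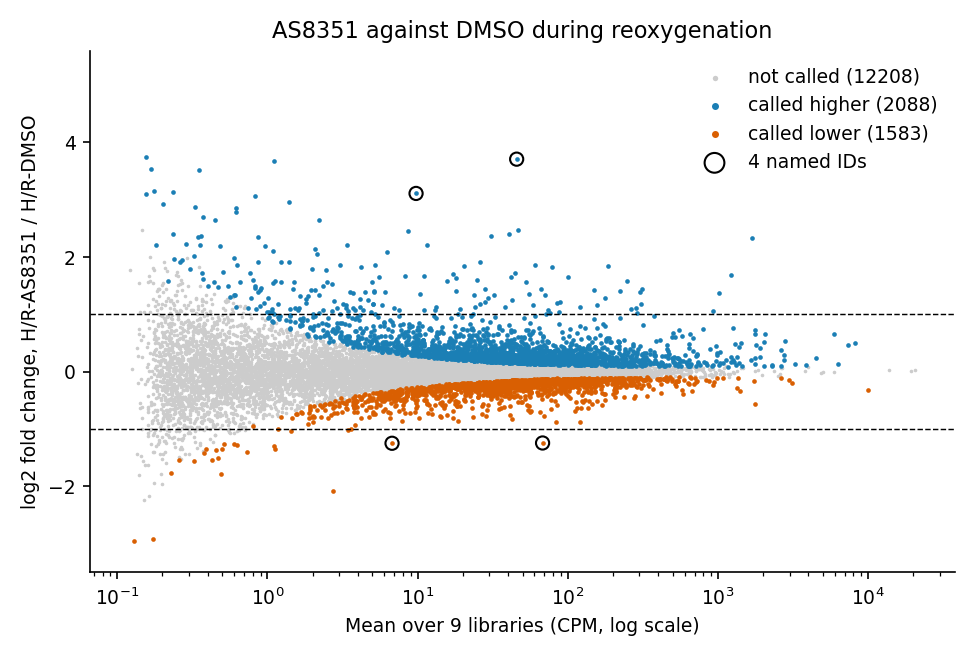
Each point is 1 of 15879 genes, with its mean level over 9 libraries (CPM, log scale) against the log2 fold change of H/R-AS8351 over H/R-DMSO; colours mark the edgeR calls and the dashed lines a 2-fold change. Above the upper line lie 193 called genes and below the lower line 24, and the uncalled genes widen toward low CPM.

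At a mean level of 5 CPM or more, the largest increase was that of ENSRNOG00000017766. Its level was 2.75, 3.34 and 2.29 CPM in the H/R-DMSO libraries, 34.0, 36.7 and 37.3 CPM in the H/R-AS8351 libraries and 97.0, 98.8 and 99.1 CPM in normoxia. No H/R-AS8351 library came near the range of either other group. The log2 fold change of AS8351 over DMSO was 3.71 (edgeR adjusted p = 5.77e-32, SE 0.08). The counts behind it were 103 to 120 per H/R-DMSO library and 1290 to 1759 per H/R-AS8351 library.

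ENSRNOG00000068340 had the next largest increase. It stood at 0.882, 0.890 and 0.953 CPM with DMSO, at 7.30, 8.96 and 7.36 CPM with AS8351 and at 18.9, 23.0 and 19.7 CPM in normoxia. The 3 groups again held separate ranges, at a lower level, with 32 to 45 counts per H/R-DMSO library. The log2 fold change was 3.11 (edgeR adjusted p = 1.64e-20, SE 0.15).

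At the same minimum of 5 CPM and with ranges that do not overlap, the 2 largest decreases were about equal in fold and unlike in where they ended; log2 fold changes of scarcer genes went down to -2.95. ENSRNOG00000011750 measured 14.9, 13.8 and 12.1 CPM with DMSO, 5.35, 5.68 and 6.12 CPM with AS8351, and 0.774, 0.778 and 1.27 CPM in normoxia. It fell by 1.25 on the log2 scale with AS8351 (edgeR adjusted p = 1.04e-10, SE 0.12) and remained well above normoxia, by a log2 fold change of 2.64 (edgeR adjusted p = 5.92e-17, SE 0.17).

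ENSRNOG00000004342 measured 115, 114 and 111 CPM with DMSO, 51.1, 47.9 and 44.4 CPM with AS8351, and 43.7, 43.4 and 42.4 CPM in normoxia. Here the H/R-AS8351 libraries lay just above the normoxia range without overlap. The gene fell by 1.24 on the log2 scale (edgeR adjusted p = 2.24e-23, SE 0.05), and the rest that separated it from normoxia was a log2 fold change of 0.14 (edgeR adjusted p = 0.0231, SE 0.05).

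**Figure D2:**
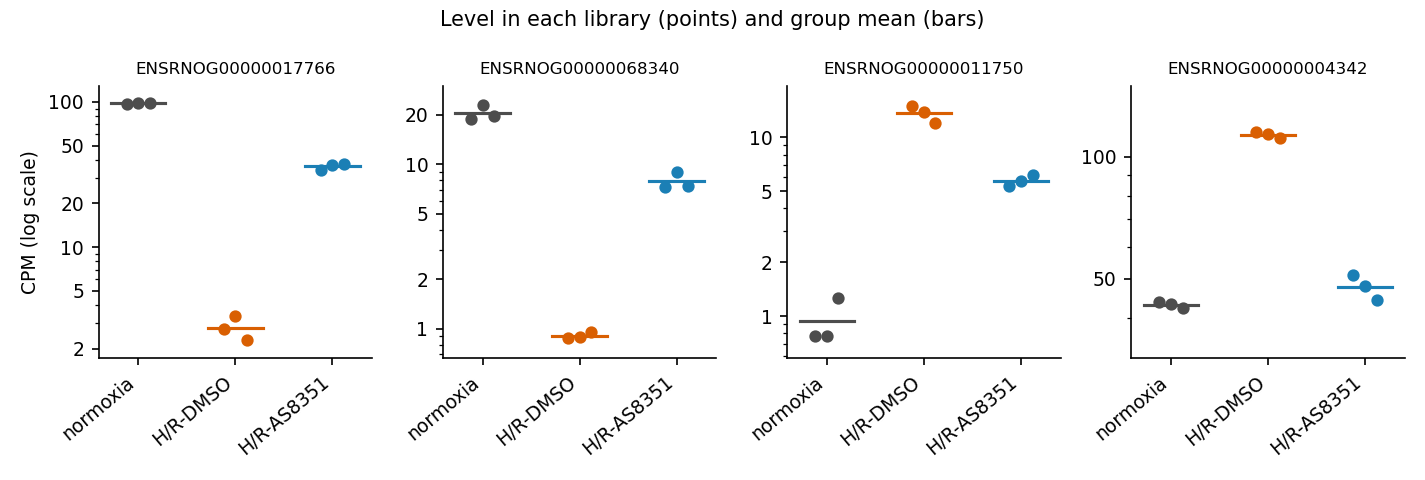
CPM (log scale, 1 panel per gene) of the 4 named IDs in each of 9 libraries, with bars at the group means. In each panel the H/R-AS8351 points lie between those of the other groups, closest to normoxia for ENSRNOG00000004342 at 44.4 to 51.1 CPM.

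The genes behind these leaders changed by unequal sizes in the 2 directions. At or above this mean of 5 CPM, the 12 largest increases, the named IDs included, had log2 fold changes from 1.86 to 3.71, and the 12 largest decreases from -1.25 to -0.80. This mean covers all 9 libraries, so a gene low only with DMSO passes it more easily than a gene high only with DMSO. The minimum thus favours steep increases, and nothing is read from the unequal sizes. The CPM ranges of the H/R-AS8351 and H/R-DMSO libraries did not overlap for any of these 24 genes, which the choice required; over all genes tested they did not overlap for 35.0%. Among the 12 increases was 1 very abundant gene, the seventh in rank, which went from 254 CPM with DMSO (241 to 262) to 1280 CPM with AS8351 (1220 to 1310), against 3510 CPM in normoxia. Its log2 fold change was 2.33 (edgeR adjusted p = 4.77e-38, SE 0.04).

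The leaders were then set beside the H/R change, H/R-DMSO against normoxia. The H/R-DMSO libraries enter both comparisons, as control in one and as the changed group in the other. Sharing them favours opposite directions, so the values are given side by side and no relation is tested. Of all genes tested, 27.5% were called higher and 25.2% lower after H/R. Between H/R-AS8351 and normoxia 39.4% were called, 19.7% in each direction. Among all 2088 genes called higher with AS8351, 1789 had fallen after H/R, and 1234 of the 2088 ended below normoxia. Among all 1583 called lower, 1286 had risen after H/R. Of the 1583, 634 ended above normoxia, 182 below and 767 not called different. Of the 12 increases, 11 had fallen after H/R, and with AS8351 these 11 were below normoxia (edgeR, adjusted p below 0.05). All 12 decreases had risen after H/R, and with AS8351 they ended on either side of normoxia: 5 above, 4 below and 3 not called different. The decrease with rank 4 was one that went below. It measured 71.3 CPM in normoxia, 115 CPM with DMSO and 62.9 CPM with AS8351, a log2 fold change of -0.87 (edgeR adjusted p = 2.13e-19, SE 0.05).

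The exception among the 12 increases, with rank 4, was nearly silent in normoxia. It was at 0.113 to 0.193 CPM there, at 3.67 to 4.19 CPM with DMSO and at 17.7 to 24.5 CPM with AS8351, so that it was higher after H/R and higher again with the compound. The log2 fold change was 2.46 for AS8351 over DMSO (edgeR adjusted p = 2.90e-20, SE 0.12) and 4.80 for DMSO over normoxia (edgeR adjusted p = 2.86e-20, SE 0.25).

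**Figure D3:**
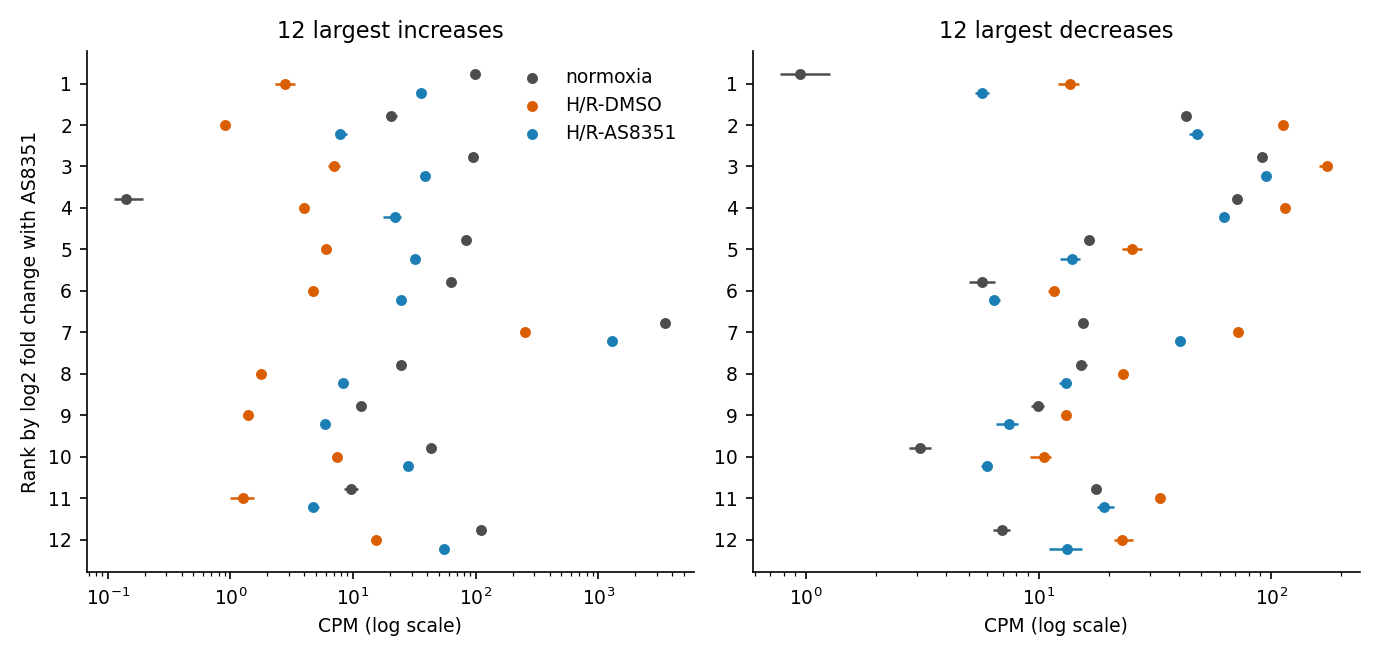
Group mean CPM (points, log scale) with the lowest and highest library (lines) for the 12 largest increases (left) and 12 largest decreases (right) with AS8351, by rank. On the left the normoxia points lie to the right of H/R-AS8351 in every rank but rank 4, where normoxia is at 0.141 CPM and H/R-AS8351 at 22 CPM.

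The 193 genes that rose at least 2-fold made up 1.22% of the genes tested, and the 24 that fell at least 2-fold 0.151%. Genes that rose had a median log2 fold change of 1.44 and a median level over the 9 libraries of 2.92 CPM. Together they took 0.324% ± 0.00440 (SD, n = 3) of the counts in H/R-DMSO, 0.869% ± 0.0181 in H/R-AS8351 and 1.71% ± 0.0126 in normoxia. With AS8351, 128 of these genes were below normoxia, 57 were not called different from it and 8 were above it, against the 19.7% of all genes called in each direction. These genes were chosen for low levels with DMSO, and a scarce gene could enter the test through normoxia, where it was high. The choice favours genes high in normoxia, so nothing is read from these counts.

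The 24 genes that fell were much scarcer, with a median of 0.504 CPM, and 16 of them had a mean below 1 CPM. Their share of the counts was 0.0170% ± 0.000535 (SD, n = 3) with DMSO, 0.00691% ± 0.000309 with AS8351 and 0.00512% ± 0.000146 in normoxia. With AS8351, 17 were not called different from normoxia, 5 were above it and 2 below, against the 19.7% of all genes called in each direction. Below 1 CPM, where 16 of the 24 lay, the median standard error of the change from DMSO was 0.49 on the log2 scale. A missing call therefore does not show a return to normoxia. The number of genes at least 2-fold lower moved with the tool and the filter. DESeq2 called 13 genes lower at least 2-fold, 8 genes were left with a minimum mean of 1 CPM, and 5 of the 24 were called lower at least 2-fold under every one of the 18 alternatives, that minimum included.

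Many of the steepest changes were read from few counts. Among 39 genes with an increase of at least 4-fold, 23 had a mean below 1 CPM, and 33 of the 193 that rose at least 2-fold had fewer than 10 counts in every H/R-DMSO library. Such genes entered the test through another group, in which they were high. Their fold changes are uncertain, and the filter itself favours an increase over DMSO, so nothing is read from their direction. A further 112 genes had an estimated increase of at least 2-fold and 83 an estimated decrease of that size without being called, all with a mean below 1 CPM. Just inside the 2-fold limit stood 45 called genes that rose between 2-fold and 2.2-fold, and just outside it 48 that rose between 1.8-fold and 2-fold.

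Calls became more frequent with abundance, while 2-fold increases were called for 2.29% of the genes below 1 CPM, 2.09% from 1 to 10 CPM, 0.560% from 10 to 100 CPM and 0.900% above that. Below 1 CPM, 2.99% of 2444 genes were called, and the smallest called change was 0.94 on the log2 scale. From 1 to 10 CPM it was 15.3% of 3583 genes, from 10 to 100 CPM 27.6% of 7851 genes, and at 100 CPM or more 44.0% of 2001 genes, with called changes as small as 0.09. The median standard error of a log2 fold change fell over the same classes from 0.49 to 0.16, 0.06 and 0.04, and a small change in a scarce gene was not detectable at this depth. At 100 CPM or more, 522 genes rose and 358 fell, and 18 of those that rose and 0 of those that fell reached 2-fold.

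**Figure D4:**
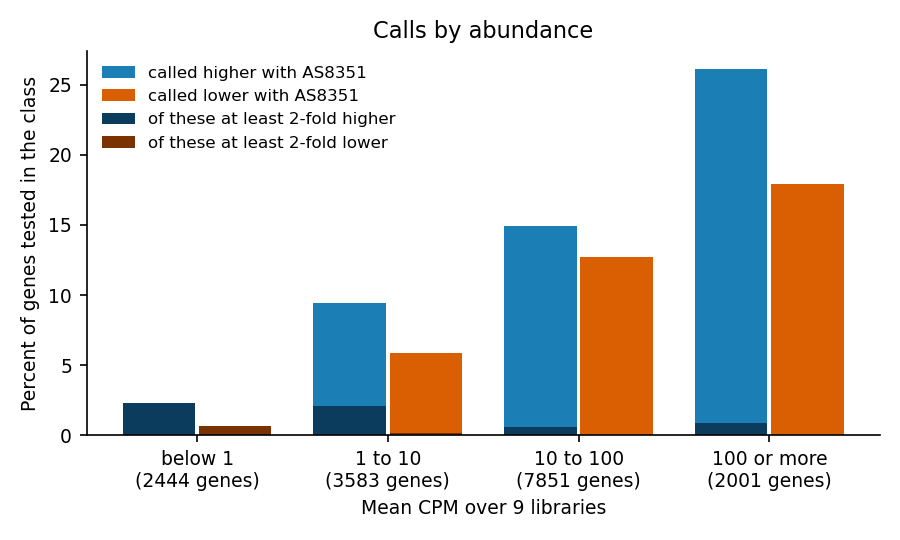
Percent of tested genes called higher (blue) or lower (orange) with AS8351 by class of mean CPM, with the part that changed at least 2-fold in the darker shade. Calls reach 26.1% higher and 17.9% lower at 100 CPM or more, and the share at least 2-fold higher is 2.29% below 1 CPM and 0.900% in that top class.

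Most of the RNA that moved belonged to abundant genes with modest folds. Summed over the 2088 higher genes, the mean level rose by 50300 CPM from DMSO to AS8351. Over the 1583 lower genes it fell by 24100 CPM. The DMSO libraries had scaling factors of 1.048, 1.045 and 1.049, the AS8351 libraries smaller ones of 1.027, 1.015 and 1.02. A smaller factor makes the summed CPM of a library larger, so the excess of gain over loss partly reflects scaling and is not interpreted. A share of a library's counts is unaffected by its factor. Genes at least 2-fold higher supplied 10.8% of the gain, and genes at least 2-fold lower 0.393% of the loss. It took 70 genes to make up 50% of the gain and 132 for 50% of the loss. The largest single gain was 2300 CPM in a gene with a log2 fold change of 0.50, and the largest single loss, 2440 CPM, came from a gene with -0.31. That one gene made up 10.1% of the loss. The higher genes held 22.2% ± 0.387 (SD, n = 3) of the counts with DMSO and 26.8% ± 0.39 with AS8351, and the lower genes 17.5% ± 0.185 and 14.6% ± 0.237. These shares were taken over genes chosen on the same libraries and describe the size of the shift only.

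Relative to the H/R-DMSO mean, the median log2 difference over the 2088 higher genes was 0.29, 0.32 and 0.32 in replicates 1, 2 and 3, and over the 1583 lower genes -0.21, -0.25 and -0.24. These genes were called on the same libraries, which fixes the direction in each, and the values show only how large the shift was per library. Replicate 1 had the smaller shift in both directions. H/R-DMSO replicate 1 lay farther from its partners than they from each other, at chi-square values per degree of freedom of 8.72 and 7.91 against 3.89.

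Genes called with AS8351 and not called in the opposite direction after H/R numbered 596, 299 higher (1.88% of the genes tested) and 297 lower (1.87%). Of these, 480 were not called after H/R, where 52.7% of all genes were called, and 116 moved with AS8351 in the direction that H/R had already taken. Their changes with AS8351 were smaller than 1.5-fold for all but 30 of the higher and 11 of the lower genes. Their median level was 35.4 CPM for the higher and 52.6 CPM for the lower genes, against 41.4 and 44.0 CPM for all genes called in these directions. The count was 354 without H/R-AS8351 replicate 2 and 394 without replicate 3. Under total count scaling it was 519, of which 64.5% were higher against 50.2% under TMM scaling, and 285 genes were shared with the 596.

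The 70 genes that rose after H/R and rose again with AS8351 had median log2 changes of 0.35 and 0.25 in these 2 steps. Their median level was 25 to 25.6 CPM in the normoxia libraries, 34.9 to 36.5 CPM with DMSO and 40.9 to 43.1 CPM with AS8351. The gene that was nearly silent in normoxia belonged here, as did another that went from 0.0420 CPM in normoxia to 4.25 to 5.04 CPM with DMSO and 9.88 to 11.5 CPM with AS8351. The latter had a log2 fold change of 1.19 with the compound (edgeR adjusted p = 4.79e-09, SE 0.14). Only 3 of the 70 rose at least 2-fold with AS8351.

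The 46 genes that fell after H/R and fell again had a median of 109 CPM. Of them, 24 were at 100 CPM or more, against 358 of all 1583 lower genes. With AS8351 the smallest called log2 change was 0.27 in size from 1 to 10 CPM and 0.09 at 100 CPM or more. Calls of small changes thus favour abundant genes. Median changes of the 46 were -0.25 after H/R and -0.19 with AS8351. Their median level went from 120 to 122 CPM in normoxia over 105 to 106 CPM with DMSO to 94.0 to 96.0 CPM with AS8351. None reached 2-fold with the compound. The steepest fell by 0.69 on the log2 scale (edgeR adjusted p = 8.56e-09, SE 0.08), from 21.9 CPM in normoxia over 16.9 to 19.5 CPM with DMSO to 10.8 to 11.8 CPM with AS8351.

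The 229 higher and 251 lower genes that were not called after H/R had median H/R changes of -0.06 and 0.06 on the log2 scale. Not being called does not show that H/R left them unchanged, nor that AS8351 did not reverse a smaller H/R change: 78 and 103 of them had an adjusted p between 0.05 and 0.2 for H/R, and 79 and 83 had one above 0.5. Of all 15879 genes tested, 2100 and 3183 lay in these 2 bands. All 3 H/R-AS8351 libraries lay above both other groups for 143 of the higher genes and below them for 138 of the lower genes, and over all genes tested this was so for 2.88% and 2.75%. Against normoxia itself, 128 were called higher and 118 lower, where 19.7% of all genes were called in each direction. Selection for a difference from DMSO and for no H/R call favours both counts, so nothing particular to these genes is read from them. An example with a sizeable level was 9.17 to 10.7 CPM with DMSO, 18.2 to 19.7 CPM with AS8351 and 11.3 CPM in normoxia, a log2 fold change of 0.95 (edgeR adjusted p = 1.08e-10, SE 0.09), with -0.21 for H/R (edgeR adjusted p = 0.0667). Among the lower genes one measured 41.2 to 45.7 CPM with DMSO, 28.8 to 29.0 CPM with AS8351 and 40.6 CPM in normoxia, a log2 fold change of -0.61 (edgeR adjusted p = 6.96e-11, SE 0.06), with 0.12 for H/R (edgeR adjusted p = 0.0922).

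**Figure D5:**
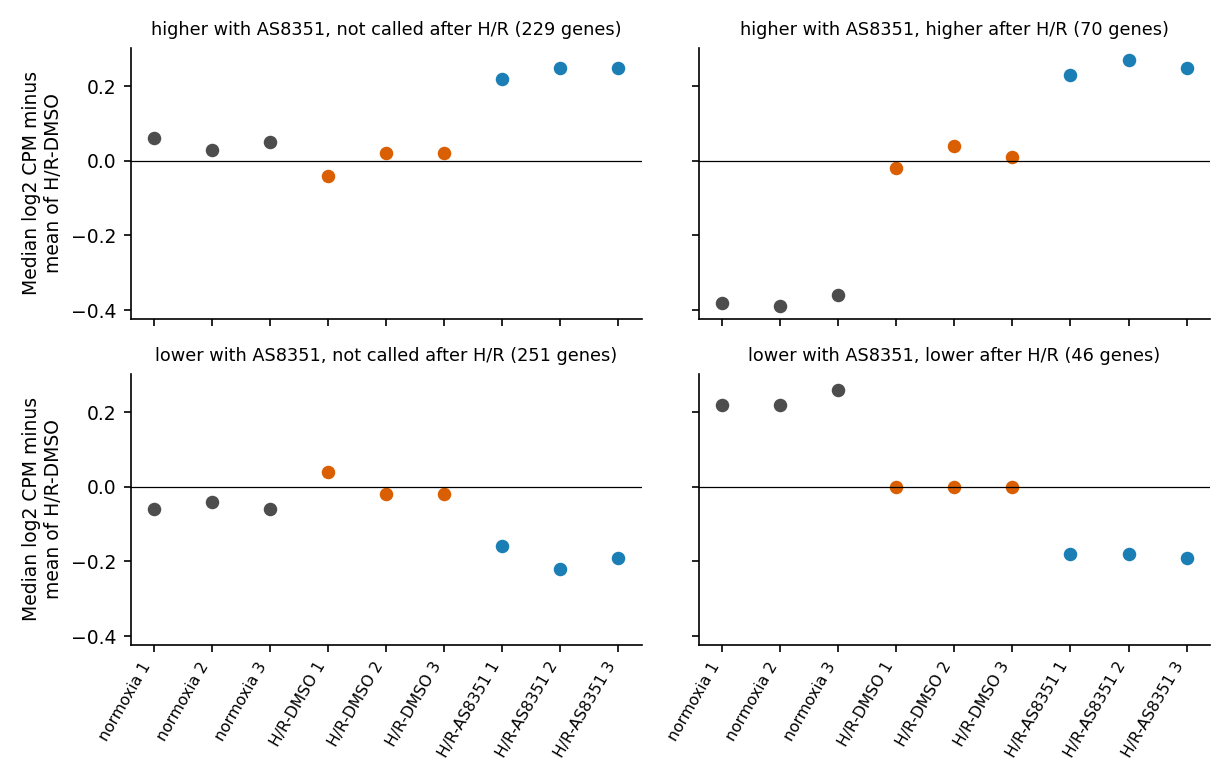
Median over genes of log2 CPM minus the H/R-DMSO mean, 1 point per library, for the 4 classes of genes called with AS8351 and not called in the opposite direction after H/R. In the classes not called after H/R the normoxia points lie between -0.06 and 0.06, and in those that continued the H/R change they lie on the far side of H/R-DMSO, from -0.39 to -0.36 for the genes that rose and from 0.22 to 0.26 for those that fell. The choice of the latter classes fixes that side.

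Among the 299 higher and 297 lower genes not opposite to H/R, 10 increases and 6 decreases reached 2-fold. Among all genes called in these directions it was 193 of 2088 and 24 of 1583. Of the 16, 12 had a mean below 1 CPM. A smaller core was kept under the 18 alternatives in which both comparisons were fitted. Of the 596 genes, 138 were called with AS8351 and not opposite to H/R under all 18 alternatives, 100 higher and 38 lower. Of the 100, 32 had risen after H/R, and of the 38, 25 had fallen. Before this step it was 70 of 299 and 46 of 297. Of all genes tested, 27.5% were called higher and 25.2% lower after H/R. A gene not called after H/R can become opposite under an alternative, so the core favours genes that H/R moved in the same direction. Median log2 changes with AS8351 were 0.30 for the 100 and -0.24 for the 38. For comparison, 1311 of the 2088 higher genes, 758 of the 1583 lower genes and 102 of the 193 genes at least 2-fold higher were kept under all 18, 1 of which removes the 56 of the 193 with a mean below 1 CPM by its construction.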

How the data were processed

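The authors deposited raw counts for Ensembl gene IDs in a separate table for each library, not pooled. The build rn6 and the tools DESeq2 1.32.0, featureCounts 2.0.1, STAR 2.7.3a and Trimmomatic 0.39 are listed, per the submitters' processing notes. Annotation release, strand setting and the counting of reads with several matches were each not given in the sources used here, so overlapping, antisense and near-identical genes can share counts. Groups and replicates follow the titles; the file names of the H/R-AS8351 libraries use a code that the labels do not explain.

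The analysis used edgeR 4.0.16 in R 4.3.3: filterByExpr (minimum count 10, minimum total 15), TMM scaling, 1 quasi-likelihood model over all 9 libraries, with a common estimate of the spread for the 3 groups, and Benjamini-Hochberg adjustment over 15879 genes at 0.05. A standard error is the log2 fold change divided by the square root of the F value. A 2-fold gene was called and had a log2 fold change of at least 1 in size. No pair of libraries within a group agreed within sampling noise, with chi-square per degree of freedom from 3.89 to 8.72. The steps were tested on simulated data.

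The comparison and the lists were chosen with earlier results of these data known. The rule for named genes took the 12 largest changes per direction among called genes at 5 CPM or more on average whose ranges do not overlap, and the 8 largest per direction not opposite to the H/R change with at least 1 CPM. As no symbol was settled, 2 IDs per direction are printed, and the gene and marker lists were not analysed here. Alternatives were RLE, upper-quartile and total count scaling, no filter, DESeq2 1.42.0, a minimum mean of 1 CPM, the 2 groups alone, limma-voom (limma 3.58.1), the replicate block and each library left out. A test against a 1.2-fold change was added later.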

Additional observations from a re-analysis of the deposited data

How the results depend on the processing

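For the 4 named IDs, picked for large called changes, all 72 alternative values had the same direction and passed the threshold. Counts of genes moved more. Total count scaling gave 2383 lower genes in place of 1583. Genes at least 2-fold lower numbered 13 with DESeq2 and 8 with a mean of at least 1 CPM, in place of 24. The test against a 1.2-fold change, chosen after seeing the data, gave 515 higher and 158 lower genes, fewer by its construction. With 1 library left out, counts ranged from 1674 to 2052 for higher and from 1042 to 1540 for lower genes, from 166 to 192 and from 16 to 30 for those at least 2-fold higher and lower, and from 354 to 673 for genes not opposite to the H/R change. The lowest values for lower genes and for genes not opposite came without H/R-AS8351 replicate 2, and 394 genes were not opposite without replicate 3. Whether equal replicate numbers pair the libraries was not settled. Deviations from group means had correlations between -0.004 and 0.042 for equal numbers and between -0.045 and 0.012 for unequal ones. Deviations within a group of 3 libraries cancel, which ties these correlations to each other, so they cannot exclude pairing. With the replicate block 2209 genes were higher and 1731 lower, more than the 2088 and 1583 without it. At least 2-fold were 192 and 27, and 667 were not opposite. Depth limits the 2444 genes below 1 CPM, where the median standard error was 0.49 on the log2 scale.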
